A study of Mus musculus with 2 samples.

Results

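The genes that carry new proteins into the endoplasmic reticulum (ER) and attach N-linked sugars to them were compared between the liver of 1 wild type mouse and the liver of 1 Drp1 knockout mouse. The set held 47 genes, named by their function, of 30222 gene names on the array. A gene was a member if the array file gave its symbol to a probe that is not a control, which held for all 47 through 70 probes on 88 spots. Of these, 46 genes were measured on both arrays through 66 probes, 18 of them by several probes and 28 by 1 probe.

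Both mice were male C57BL/6J. Both had received a lard diet of 24% fat (45% of its energy from fat) for 24 weeks from 4 weeks of age. Drp1, encoded by Dnm1l, is the dynamin-related GTPase that divides mitochondria, and the series title places its disruption in the liver. How the gene was deleted, in which liver cells, and whether the mice were fasted or refed is not given in the labels used here. Each group was 1 array on 1 shared slide, so there are no replicates, no difference was tested between the groups, and the number of arrays limits the precision.

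Secreted and membrane proteins are recognised by their signal sequence as they leave the ribosome, brought to the ER by the signal recognition particle (SRP), and threaded through the Sec61 channel, where signal peptidase removes the signal. Meanwhile the oligosaccharyltransferase moves a preformed sugar tree from a lipid carrier, dolichol, onto the growing chain, and glucosidases then trim it so that the lectin chaperones can check its folding. Hepatocytes are secretory cells that release most plasma glycoproteins through this route.

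Each level is the signal divided by the 75th percentile over the same array. Differences are knockout minus wild type on the log2 scale, averaged over the probes of a gene, and a gene counts as lower or higher from 1.5-fold. Signals of different probes depend on their sequence, so levels are compared only within a probe or gene. Spots that carry the same probe differed with an SD of 0.14 (log2, 241 probes) in the difference between the arrays. This SD covers measuring error on an array, and variation between mice was not measured.

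Most of the machinery differed little between the 2 livers. Of the 46 measured genes, 8 were lower on the knockout array (17.4%), 1 was higher (2.17%) and 37 lay within 1.5-fold. Over all 15401 measured genes the shares were 13.4% lower and 8.41% higher, so the share of lower members lay close to the background. The 8 were Alg6, Dpm3, Spcs2, Rpn1, Uggt1, Sec61a1, Sec61b and Ssr1, and the higher gene was Tusc3. At 2-fold only Alg6 stood apart, against 3.65% of all genes lower and 2.9% higher by that much. The median member was -0.16, against -0.11 for all genes, and 30 members (65.2%) were below 0, against 60.1% of all genes. The member median was 0.02 under loess normalization and 0.64 when the arrays were scaled to spike-in RNA. In bulk liver RNA, fewer cells of a type and less RNA per cell cannot be told apart.

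**Figure D1:**
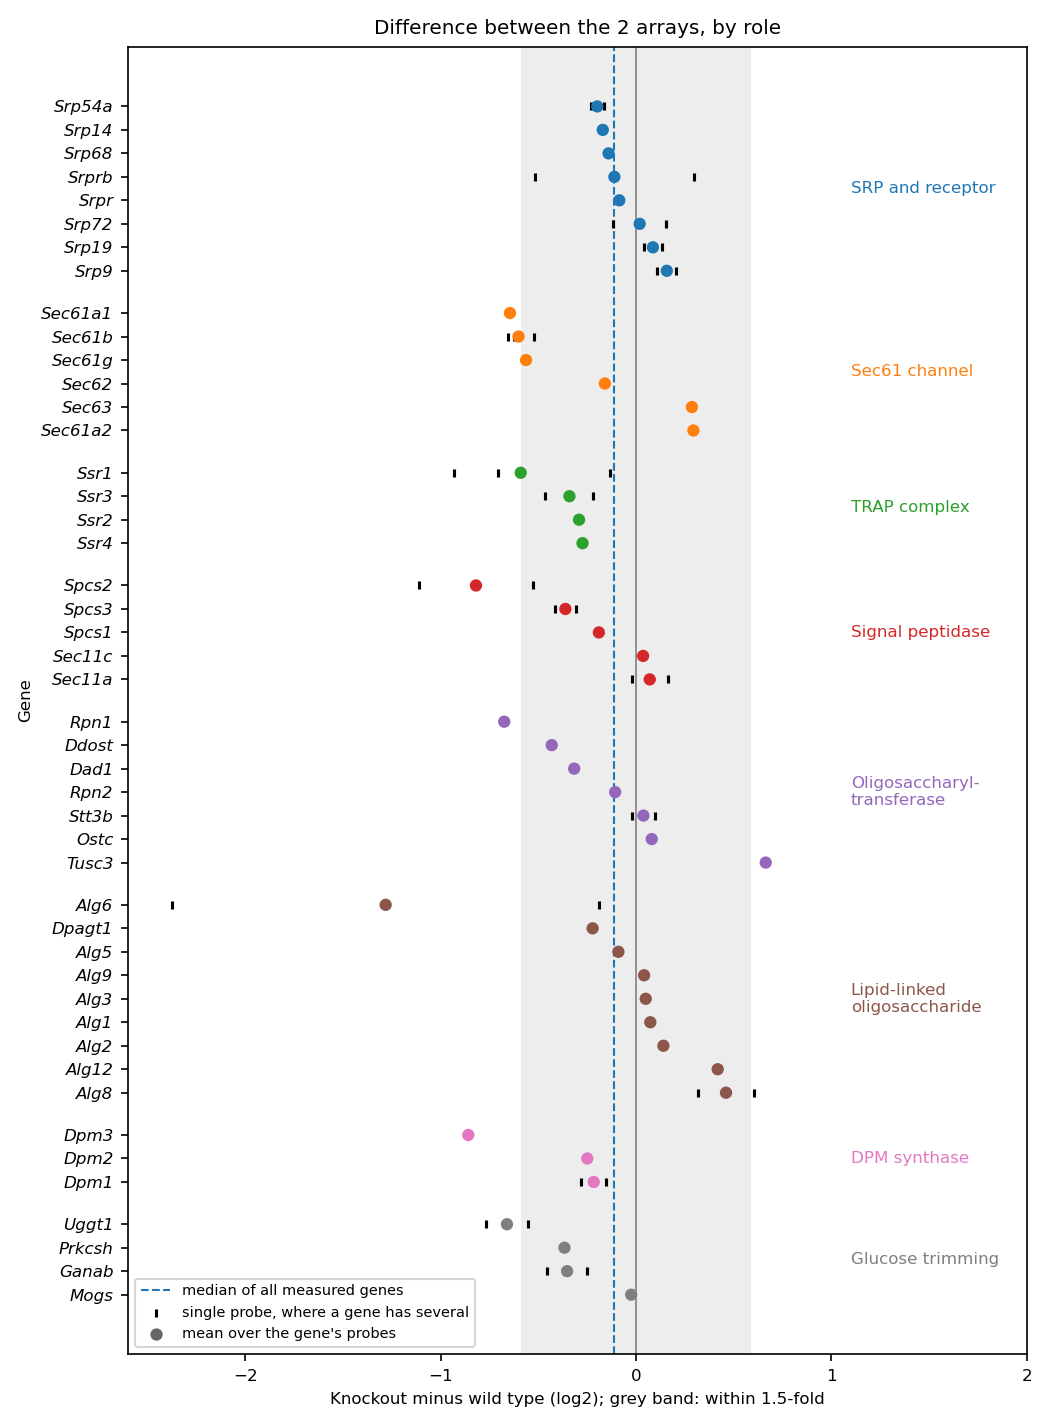
Difference between the knockout and the wild type array (log2) for each of the 46 measured genes, grouped by role. Dots are gene means, short ticks are single probes where a gene has several, the grey band marks differences within 1.5-fold and the dashed line the median of all measured genes (-0.11). Sec61a1, Sec61b and Sec61g lie close together near the lower edge of the band, and the probes of Alg6 lie far apart; scaled to spike-in RNA, all genes but Alg6, Dpm3 and Spcs2 lie above 0.

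The choice of scaling shifts every gene. The median of all measured genes was -0.02 under quantile normalization, 0.00 under loess and 0.70 under spike-in scaling, where 28 members were higher and 0 lower. Relative to the all-gene median the members were at -0.05 as reported, 0.02 under quantile normalization, 0.02 under loess and -0.05 under spike-in scaling. They were at 0.03 under normexp background correction and at 0.13 without the filter on dim probes. Directions below are those after scaling to the 75th percentile unless another scaling is named.

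Differences varied with brightness, and many members are bright. With the genes divided into 10 equal groups by mean level, the median difference over all genes was -0.25 in the dimmest group, at most 0.02 in the groups above it and -0.30 in the brightest. The dimmest group, which held 0 members, also had the greatest share of lower genes (25.1%), against 17.4% in the brightest. The 3 brightest groups held 26 members, of which 5 were lower and 0 higher, against 13.8% lower and 3.12% higher of all 4620 genes there. The medians in these groups were -0.26 for the members and -0.23 for all genes. Set against the median of its own group, a member deviated by a median of 0.03, and 22 of 46 were below. The part of brightness in the member differences was not tested beyond these values.

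**Figure D2:**
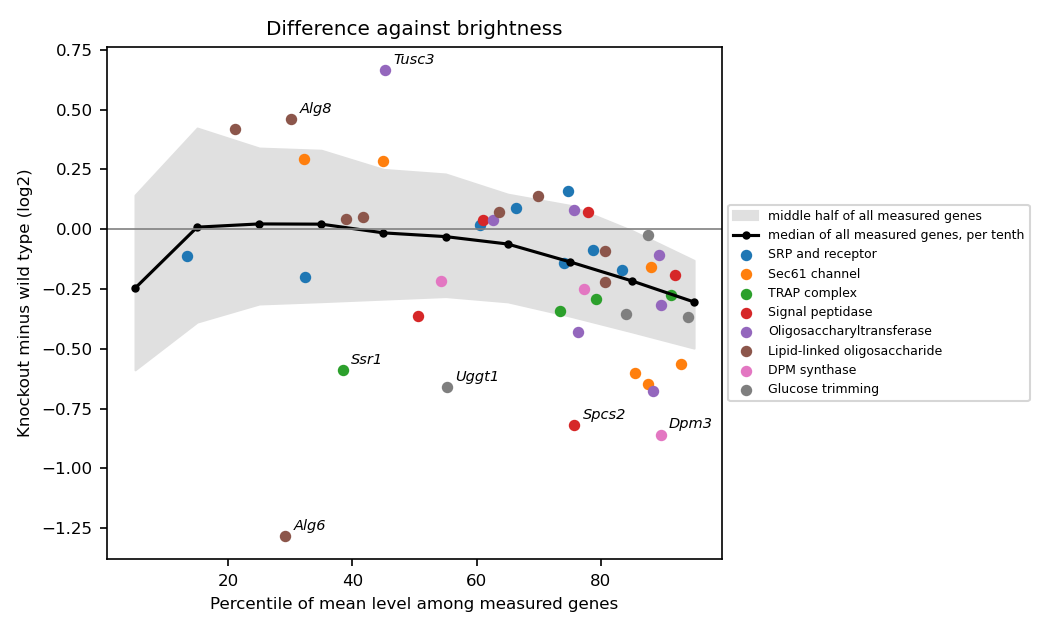
Difference between the arrays (log2) of each measured member against the percentile of its mean level among all measured genes. The black line gives the median of all genes in each of 10 groups by level and the grey band their middle quartiles. Of the 46 members 22 lie below the median of their group, Alg6, Dpm3, Spcs2, Uggt1 and Ssr1 are among those below the band, and Tusc3 is above it; spike-in scaling moves members and line up by the same amount.

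The sequences below are the array's own probes for 4 of the 5 lower members that have several probes: Alg6 and Ssr1, whose probes disagreed in size, Spcs2, and Sec61b, whose probes gave like values although the file places one of them on another chromosome. The first 30 of the 60 bases of each probe are shown 5′ to 3′ in lower case, and no base is singled out. The position is the start of the probe in its transcript as the array file lists it, and coordinates are those of the file in build mm9 and cover the whole probe. Whether a probe lies in coding sequence or a UTR was not determined here.

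Alg6 at position 1194, chr4:99417429-99417488, plus strand: gcgctatcattctttctgttttctttccaa
Alg6 at position 3054, chr4:99430092-99430151, plus strand: tttcacaggaaagctgtttctttagtctct
Spcs2 at position 616, chr7:106988218-106988277, minus strand: tcatggatgcatatgaacctgaaatatcca
Spcs2 at position 2754, chr7:106986080-106986139, minus strand: agctctccaaacacagatttatatatgcgc
Ssr1 at position 2429, chr13:38070087-38070146, minus strand: aaagggggtgaaatgtcaaattgcctgtat
Ssr1 at position 4610, chr13:38067906-38067965, minus strand: gaataggagatttaatttttattcgttaac
Ssr1 at position 9044, chr13:38063472-38063531, minus strand: ttctctgtgaaagaaaaacatgctctggag
Sec61b at position 9, chr4:47487542-47487601, plus strand: atctacgagagttctgagtgctcggcaact
Sec61b at position 369, chr4:47495923-47495982, plus strand: acgcgatcatagattgggctacatccatct
Sec61b at position 476, chr15:100128009-100128068, plus strand: tttgagaaatcagttttttctatggctaat

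SRP and its receptor, which recognise the signal sequence and dock the ribosome at the ER, showed no member 1.5-fold apart. All 8 genes were measured, 5 were below 0, and their median was -0.10, which turned to 0.04 under quantile normalization, 0.05 under loess and 0.71 under spike-in scaling. Srp54a encodes the subunit that binds the signal sequence. Its level was 0.429 in the wild type and 0.374 in the knockout (-0.20, probes -0.23 and -0.17). The array also carries Srp54c, a near-identical copy, at 4.23 and 6.31 (0.58, 1.49-fold higher), and how far the probes separate the copies was not determined.

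Srp9 and Srp14 form the dimer that pauses translation while the ribosome is carried to the ER. Srp14 was printed in 10 spots, whose levels ran from 8.67 to 9.98 on the wild type array (median 9.23) and from 7.79 to 8.69 on the knockout array (median 8.19). The spots overlapped slightly, and the mean difference was -0.17. Spots of the same probe share the RNA sample of their array and do not cover variation between mice. Srp9 lay on the other side of 0, at 3.79 and 4.22 (0.16). Srp68 and Srp72, which bind each other on the particle, were at -0.14 and 0.02, and Srp19, an assembly subunit, was at 0.09. The receptor's alpha subunit Srpr was at 5.76 and 5.43 (-0.09). Its membrane-anchored partner Srprb was among the dimmest members, and its probes differed in sign, 0.30 and -0.52, so that its mean of -0.11 describes neither.

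The 3 chains of the Sec61 channel itself gave like values. Its pore subunit Sec61a1 was at 18.4 on the wild type array and at 11.8 on the knockout array (-0.65, 1.56-fold lower). The small subunit Sec61b was at 13.6 and 8.95 (-0.60, 1.52-fold lower). Sec61g, the other small subunit, was at 39.4 and 26.7 (-0.56, 1.48-fold), just short of the 1.5-fold line. So 2 of the 3 chains counted as lower, and the median of the 3 was -0.60, or -0.49 relative to all genes. Under quantile normalization, loess and the deposited table the median was -0.39 and under normexp -0.51, and none of the 3 chains passed 1.5-fold under these 4 settings. Under spike-in scaling all 3 lay above 0 (median 0.21), at -0.49 relative to all genes. Over all 11 settings their median relative to all genes stayed between -0.29 and -0.53.

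Sec61b is the best covered of the 3 chains. Its probe at position 9 was at 5.55 and 3.6 (-0.63), and the one at position 369 at 40.2 and 25.6 (-0.65). The last, at position 476 of another transcript record, which the array file places on chromosome 15 rather than on chromosome 4, was at 11.2 and 7.79 (-0.52). Whether that probe reads Sec61b transcripts alone or also a copy of the gene was not determined. All 3 probes were below 0 and within 0.13 of each other, and 2 of them, both on chromosome 4, passed 1.5-fold. The median range over all 3348 genes with several probes was 0.27.

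The channel's other partners did not follow the trimer. Sec61a2, the second pore gene, was at 0.357 and 0.437 (0.29), opposite in sign to Sec61a1. A further Sec61a2 probe was well above background on neither array. Sec63 recruits the ER chaperone BiP to the channel. Its 10 spots ran from 1.31 to 1.5 on the wild type array and from 1.62 to 1.76 on the knockout array. They carry the same probe and did not overlap, but the spots of an array share the same RNA sample. They do not cover variation between mice. The other Sec63 probe, at a separate position, gave 0.30 beside 0.28 for the 10 spots, so the gene was at 0.29, or 1.22-fold higher. Sec62, which works with Sec63, was at 16.4 and 14.7 (-0.16), and a second, dim probe was well above background on the knockout array only.

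The translocon-associated protein (TRAP) complex sits beside Sec61 and aids the entry of some signal sequences. All 4 of its genes were below 0 under every setting but spike-in scaling, which put all 4 above 0. Of all genes 60.1% were below 0 as reported. The median of the 4 was -0.32 as reported, -0.18 under quantile normalization, -0.17 under loess, -0.18 with the deposited table and 0.49 under spike-in scaling. Relative to all genes it was -0.21 as reported, -0.16 under quantile normalization, -0.18 under loess and -0.004 without the filter on dim probes. Ssr2 was at 6.51 and 5.32 (-0.29), Ssr3 at 4.13 and 3.26 (-0.34) and Ssr4 at 27.6 and 22.8 (-0.27). Only Ssr1 passed 1.5-fold, at 0.658 and 0.437 (-0.59, 1.51-fold lower).

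The value of Ssr1 depended on the probe. The brightest probe, at position 2429, was at 6.91 and 6.30, a difference of -0.13. Further along the transcript the difference was larger, with levels of 0.322 and 0.197 at position 4610 (-0.71) and of 0.128 and 0.0675 at position 9044 (-0.93). All 3 probes had the same sign, but Ssr1 passed 1.5-fold through the 2 dimmer ones alone.

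**Figure D3:**
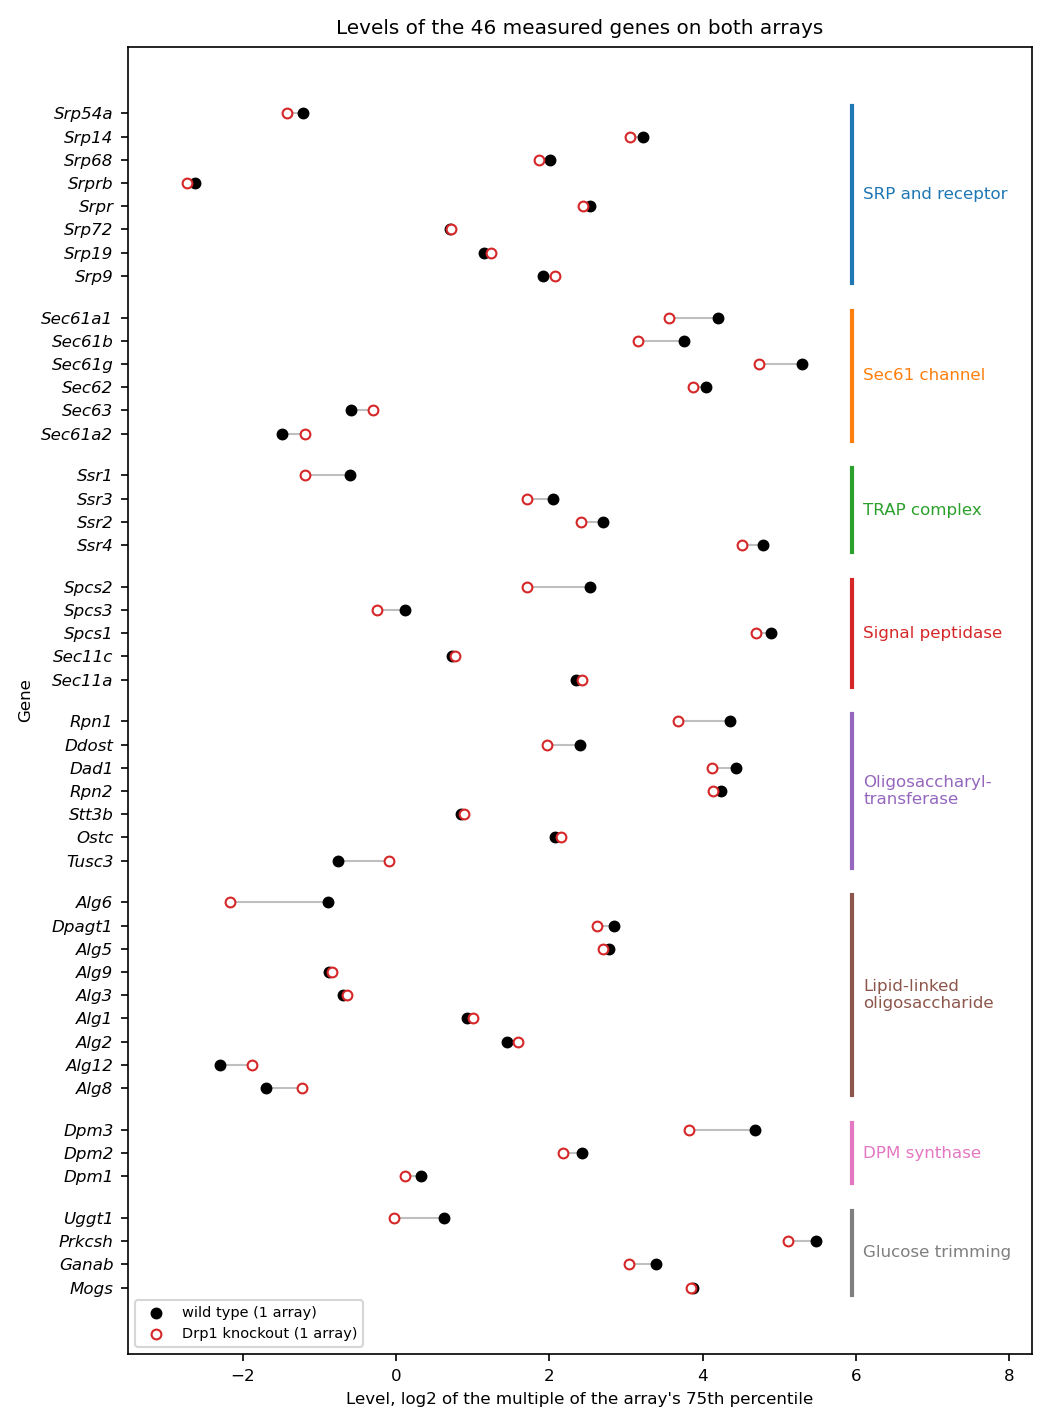
Level of each measured gene on the wild type array (filled) and the knockout array (open), as log2 of the multiple of that array's 75th percentile, grouped by role. The distance within a gene is the measured difference, and positions of different genes are not comparable. Sec61g goes from 39.4 to 26.7, Dpm3 from 25.7 to 14.2 and Tusc3 from 0.590 to 0.935; spike-in scaling would shift all open circles to the right.

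Signal peptidase cuts off the signal sequence. Its catalytic subunits Sec11a and Sec11c were nearly equal on both arrays, Sec11a at 5.10 and 5.35 (0.07) and Sec11c at 1.66 and 1.70 (0.04). The accessory subunits Spcs1, at 29.6 and 26.0 (-0.19), and Spcs3, at 1.08 and 0.843 (-0.36), were below 0 here and above 0 under spike-in scaling, Spcs1 also under loess, quantile normalization and the deposited table. Spcs2, another accessory subunit, was at 5.78 and 3.27 (-0.82, 1.76-fold lower). The Spcs2 probe at position 616 was at 9.95 and 6.90 (-0.53), and the one at position 2754 at 3.35 and 1.55 (-1.11). Both were below 0 and 0.58 apart, and the second alone passed 1.5-fold. The complex as a whole had a median of -0.19, which was above 0 under quantile normalization (0.07), loess (0.08), the deposited value table (0.07) and spike-in scaling (0.62).

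Within the oligosaccharyltransferase, the enzyme that attaches the sugar tree to asparagine, the subunits lay on both sides of 0. Rpn1, a shared subunit that holds client proteins near the catalytic centre, was at 20.4 on the wild type array and at 12.8 on the knockout array (-0.67, 1.6-fold lower). Ddost was at 5.28 and 3.92 (-0.43) and Dad1 at 21.6 and 17.4 (-0.32), both shared subunits too. Rpn2, a further shared subunit, was at 18.9 and 17.5 (-0.11), so the shared subunits among the members did not differ evenly.

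The catalytic subunits are alternatives, Stt3a acting with the channel during translation and Stt3b also afterwards. Stt3b was at 1.81 and 1.85 (0.04, probes -0.02 and 0.10). Stt3a is the member without a difference: its only spot on the wild type array was marked as non-uniform and left out at a level of 2.25, and the knockout array read 0.388. Ostc, a subunit of the Stt3a complex, was at 4.21 and 4.45 (0.08).

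Tusc3, an oxidoreductase subunit of the Stt3b complex that helps reach sites near cysteines, was the higher member, at 0.590 and 0.935 (0.66, 1.59-fold higher). It has 1 probe, and it passed 1.5-fold in 9 of 10 other settings, all but normexp background correction. Its alternative in the same place of the complex, Magt1, was at 2.95 and 2.04 (-0.53, 1.45-fold lower), the opposite sign. The median over the 7 measured member subunits was -0.11. It turned above 0 under quantile normalization (0.09), loess (0.10), the deposited table (0.09) and spike-in scaling (0.70). Krtcap2, Tmem258 and Ost4, subunits outside the member list like Magt1, were at -0.46, -0.55 and -0.31 as reported. The median thus describes the member subunits alone.

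As a group, the 9 members that build the sugar tree on dolichol did not share the lower values of the channel. Of these 6 were above 0, and their median of 0.05 stayed above 0 under all 11 settings. It lay 0.16 above that of all genes, 0.10 under quantile normalization, 0.08 under loess and 0.36 without the filter on dim probes. Of 15 other genes of N-glycan assembly, which are not members, 13 were below 0 (median -0.24). That list is not a like set, since it also holds oligosaccharyltransferase subunits such as Magt1. Dpagt1, which starts the tree, was at 7.19 and 6.17 (-0.22). Alg1, which adds the first mannose, was at 1.90 and 2.00 (0.07), and Alg2, which adds the next ones, at 2.73 and 3.01 (0.14). Among the mannosyltransferases of the ER lumen, Alg3 was at 0.05, Alg9 at 0.04 and Alg12 at 0.42 (0.204 and 0.272). Alg5, which charges dolichol with glucose, was at 6.89 and 6.47 (-0.09).

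The glucosyltransferases Alg6 and Alg8, which add the first and the second glucose, lay at opposite ends of the members apart from Tusc3. Alg8 was at 0.309 and 0.426 (0.46, probes 0.32 and 0.60). Alg6 averaged 0.541 and 0.223 (-1.28, 2.43-fold lower), the greatest difference of any member. Nearly all of it came from the probe at position 1194, which was at 0.357 and 0.0688 (-2.38). The brighter probe at position 3054 was at 0.820 and 0.720 (-0.19), a range of 2.19 within 1 gene. By its brightest probe alone Alg6 was not 1.5-fold apart.

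Mannose for the later steps comes from dolichol-phosphate-mannose synthase, whose 3 genes were all below 0 with a median of -0.25. Of all genes 60.1% were below 0. The median of the 3 was -0.15 under quantile normalization, loess and the deposited table. It was 0.56 under spike-in scaling, where Dpm1 and Dpm2 lay above 0. Relative to all genes it was -0.14 as reported and 0.06 without the filter on dim probes. Dpm3, the membrane anchor that stabilises the enzyme, was at 25.7 in the wild type and 14.2 in the knockout (-0.86, 1.81-fold lower). It was lower by 1.5-fold in 9 of 10 other settings, more than any other member. Dpm1, the catalytic subunit, was at 1.26 and 1.08 (-0.22), and Dpm2 at 5.36 and 4.51 (-0.25), so Dpm3 stood further from 0 than its partners. It has 1 probe.

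After transfer, glucosidase I (Mogs) and glucosidase II (Ganab with its lectin subunit Prkcsh) remove glucoses, and Uggt1 puts one back on chains that are not yet folded. Mogs was at 14.7 and 14.4 (-0.02). Ganab was at 10.5 and 8.23 (-0.35, probes -0.25 and -0.46), and Prkcsh at 44.5 and 34.5 (-0.37). Uggt1 was at 1.54 and 0.976 (-0.66, 1.58-fold lower), and its probes were at 4.61 and 3.14 (-0.55) and at 0.516 and 0.304 (-0.77). Both were below 0, and the dimmer one alone passed 1.5-fold. The median of the 4 was -0.36 and shrank to -0.11 under quantile normalization, loess and the deposited table, with 3 of 4 below 0; it was 0.45 under spike-in scaling.

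The 8 lower members were not equally stable across the 10 other settings. Dpm3 was lower in 9 of them, Spcs2 in 8, Alg6 and Uggt1 in 7, Rpn1 and Sec61a1 in 5, Sec61b in 4 and Ssr1 in 2. Under quantile normalization and loess the lower members were Alg6, Dpm3, Spcs2 and Uggt1. With the brightest probe of each gene they were Dpm3, Rpn1, Sec61a1 and Sec61b, so that Dpm3 alone stayed in both.

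**Figure D4:**
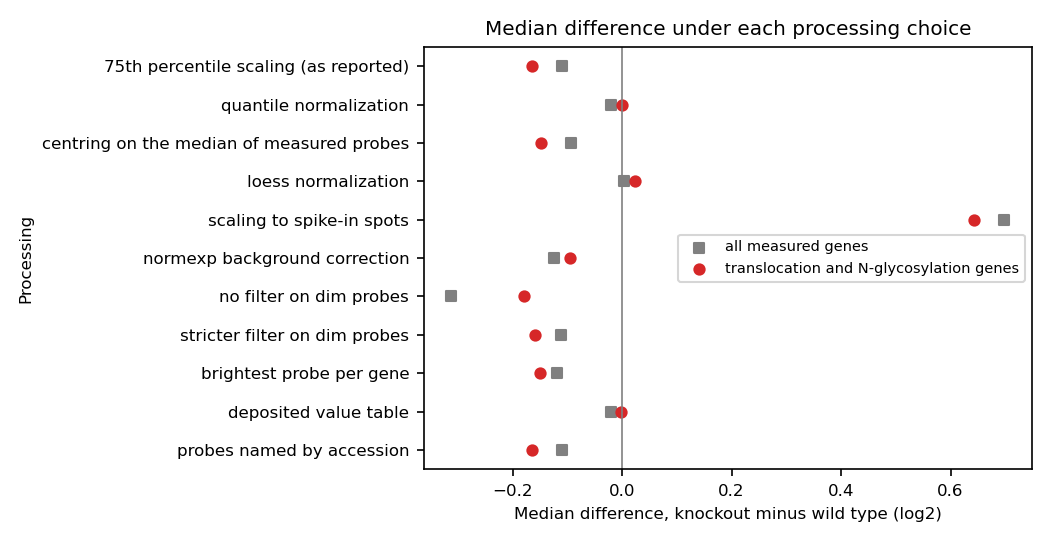
Median difference (log2) of the measured members (red circles) and of all measured genes (grey squares) under the reported scaling and 10 alternatives. The members run from -0.18 without a filter, where all genes are at -0.31, to 0.64 with spike-in scaling, where all genes reach 0.70. Under normexp the members are at -0.10 and all genes at -0.12.

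Promoters were searched for the motifs known from genes of the unfolded protein response, the programme that raises many of these genes under ER stress. RefSeq windows of 300 bases (250 before and 50 after the start, GRCm38.p6) were found for 37 members, 7 of the 8 lower ones among them. The full ER stress element, CCAAT and CCACG with 9 bases between, was found in 1 member, Alg12, and in 0.137% of all 27025 genes, on either strand. It is shown here with 20 bases on each side, on the strand of the gene, which is the minus strand, from 220 to 202 bases before the start. Capitals mark the element.

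Alg12, chr15:88819500-88819558, minus strand: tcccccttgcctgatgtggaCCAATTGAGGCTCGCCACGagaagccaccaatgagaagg

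The shorter CCACG, which is also the end of that element, was in 21 of the 37 members (56.8%) and in 35.5% of all genes, and in 4 of the 7 lower members (Alg6, Rpn1, Spcs2 and Ssr1). Its other end, CCAAT, was in 18 members (48.6%), in 41.1% of all genes and in 2 of the 7 lower members. Base composition was not compared between the windows. ERSE-II (ATTGG, 1 base, CCACG) was in 0 members and 0.0444% of genes, and the core TGACGTGG in 0 members and 0.714% of genes. These are matches of letters in 1 window per start.

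The steps around the machinery were read from 7 lists of other genes, whose medians all turned above 0 under spike-in scaling. Over all measured genes 60.1% were below 0, 13.4% were lower and 8.41% were higher under the reported scaling. Among 15 other genes of N-glycan assembly 13 were below 0 (median -0.24), and Alg11, a mannosyltransferase, was 1.54-fold lower at 1.61 and 1.05. Of 12 measured genes of sugar nucleotide supply 0 were 1.5-fold apart (median -0.26). Of 20 other translocation and membrane insertion factors 2 were lower (median -0.18): Tram2, a channel partner, at 1.29 and 0.736 (1.76-fold), and Emc9, of the ER membrane protein complex, at 13.8 and 9.12 (1.51-fold). Under the reported scaling the medians of these 3 lists lay within 0.1 of the members' -0.16. Relative to all genes they were at -0.13, -0.15 and -0.07. These became -0.16, -0.16 and 0.01 under quantile normalization and -0.17, -0.19 and -0.02 under loess. The members were at 0.02 under both.

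The lectin chaperones that receive the trimmed chains were read together with their partners, other ER chaperones, disulfide isomerases and degradation factors. This list was further from 0. Of its 14 genes 13 were below 0 and 3 were lower (median -0.48). Calr, the calreticulin that binds the trimmed sugar, was at 26.2 and 11.1 (2.36-fold lower), and the disulfide isomerases Pdia3 and Pdia6 were at 7.0 and 3.99 (1.76-fold lower) and at 12.0 and 7.45 (1.61-fold lower). The secreted glycoproteins that pass through the route stood lowest under the reported scaling, with a median of -0.61. Of 28 genes 27 were below 0, 16 were lower and 1 was higher, against 60.1%, 13.4% and 8.41% of all genes. Most genes of this list are bright, and the brightest group of all genes had a median of -0.30 with 17.4% lower. The median of the secreted list came closer to 0 under loess (-0.20) and quantile normalization (-0.17). That of the lectin chaperones and partners was -0.32 under both, so the secreted list no longer stood lowest there. Igfals was at 6.78 and 2.62 (2.59-fold lower), Itih4 at 114 and 49.2 (2.31-fold lower) and Hp, haptoglobin, at 577 and 323 (1.79-fold lower). Serpina7, the thyroxine-binding globulin, was at 0.778 and 1.75 (2.25-fold higher).

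Later steps showed no common side, and the medians of both lists turned above 0 under quantile normalization and loess. In the Golgi list, 7 of 13 measured genes were below 0 (median -0.10). The galactosyltransferase B4galt1 (2.20-fold) and the sialyltransferase St6gal1 (2.03-fold) were lower, with wild type levels of 1.78 and 2.24. Man1c1 (1.94-fold) and the fucosyltransferase Fut8 (1.63-fold) were higher, but both were dim and have 1 probe each. Man1c1 was at 0.0886 and 0.172, and Fut8 at 0.075 and 0.122. The COPII list held the coat that carries cargo out of the ER and factors that work with it, such as cargo receptors. In it 9 of 16 were below 0 (median -0.09), and Sec23a was 1.56-fold higher at 0.644 and 1.0.

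**Figure D5:**
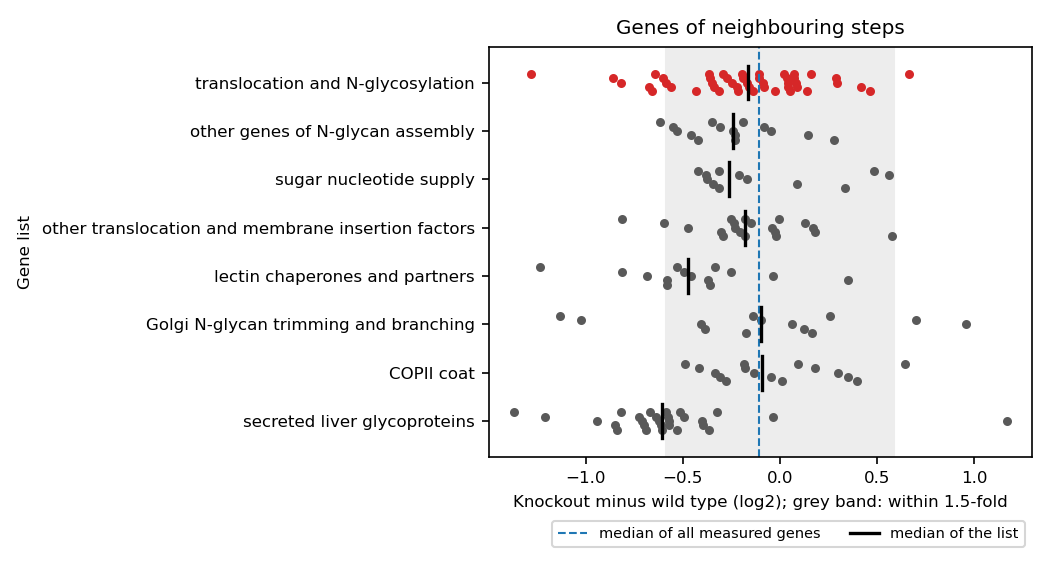
Differences (log2) of the measured members (red) and of the genes of 7 neighbouring lists (grey); each dot is a gene, black bars are list medians, the dashed line is the median of all measured genes (-0.11) and the grey band marks differences within 1.5-fold. The medians run from -0.09 in the COPII list to -0.61 in secreted glycoproteins, with the members at -0.16. Spike-in scaling adds the same amount to every dot.

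Over the arrays as a whole, 50.5% (wild type) and 57.1% (knockout) of 39429 gene probes exceeded background clearly, 0 spots were saturated, and the 75th percentile signals were 461 and 722. Dnm1l itself was at 2.03 and 1.75 (1.16-fold lower) by 1 probe. Whether that probe lies in the deleted part of the gene is not known here, so it does not check the labels. Fgf21, the hormone gene of the series title, was at 3.37 and 20.2 (5.98-fold higher). Of the 6 hepatocyte markers all were measured, 3 were lower and 1 higher, and their summed level was 2561 in the wild type and 1786 in the knockout. Differences in the markers of other cell types are given as list medians; the summed levels add unlike probes and are mostly those of the brightest one. Stellate cell and fibroblast markers had a median of 1.29, and 6 of 7 were higher (summed 47.5 and 70.5, of which Dcn, the marker that did not pass 1.5-fold, gave 44.6 and 63.0). Macrophage markers had a median of 0.63, with 3 of 5 higher (summed 23.6 and 35.6), bile duct markers 1.24, with 2 of 3 measured higher (0.447 and 1.02), and endothelial markers 0.39, with 2 of 4 higher (7.07 and 6.53). Red cell markers had a median of -0.83, and 3 of 3 were lower (174 and 98.1). Plasma cells are rich in this machinery. The 5 measured markers of plasma and B cells had a median of 0.15. Jchain (1.19) was higher, Cd79a (0.15) and Cd79b (0.46) were above 0, and Sdc1 (-0.10) and Xbp1 (-0.26) below it. The sum of 54.8 and 46.8 was mostly Xbp1, which hepatocytes express too, and Mzb1 exceeded background clearly in the knockout sample alone. All 5 skeletal muscle markers exceeded background clearly in the wild type sample alone. Of the 4 adipocyte markers Adipoq and Plin1 exceeded background clearly on neither array, Fabp4 was at 2.43 and 2.45 (0.01), and Cfd was 33.6-fold lower. The part of these cell types in the member differences was not tested.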

How the data were processed

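Liver RNA was amplified and Cy3-labelled for 1-colour Agilent mouse arrays, per the labels' protocols. The deposited files hold spot intensities from Agilent Feature Extraction (version 9.5.1.1 per the submitters' processing notes, module 10.7.1.1 per the file headers). The processed signal is background-subtracted, per the file headers. The deposited value table holds linear intensities with a median of 45.9 in both columns and nearly equal sorted values (unequal at 221 ranks), and its ranks follow those of the scanner files (Spearman 0.9999 and 1.000). Its scale was thus read from the data, and its normalization is not given in the sources used here.

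From 43020 spots per array that are not controls, outlier spots were left out (183 wild type, 190 knockout). Signals were divided by the array's 75th percentile and log2-transformed, spots of a probe were averaged, and a probe counted as measured where at least 50% of its spots were well above background. Probes measured on both arrays (19470, for 15401 genes) were averaged per gene to give its difference. Symbols are those of the files. With 1 array per group no p-value is given. Python 3.11.15, numpy 2.4.6, pandas 2.3.3, scipy 1.17.1, R 4.3.3 and limma 3.58.1 (normexp) were used, and the counting was tested on simulated data.

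Members and lists were chosen with earlier results of these data known. All members could be named; from each other list those at least 1.5-fold apart, at most 6, could be named, besides Dnm1l and Fgf21. Magt1 and Srp54c were named in addition as paralogs of members, after their values were seen, and so were the cell type markers. Krtcap2, Tmem258 and Ost4 were likewise named after their values were seen, as further oligosaccharyltransferase subunits. The alternatives were quantile normalization, median centring over measured probes, loess (span 0.3), scaling to E1A spike-in spots, normexp (offset 50), no filter, a stricter filter (above the 25th percentile), the brightest probe, the deposited table and naming by accession.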

Additional observations from a re-analysis of the deposited data

How the results depend on the processing

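The 8 lower members became 4 under quantile normalization, loess, the brightest probe and the deposited value table, 3 under normexp and 0 under spike-in scaling. The 1 higher member became 0 under normexp and 28 under spike-in scaling. The members' median of -0.16 became -0.00037 under quantile normalization, -0.0015 with the deposited table, 0.0234 under loess and 0.64 under spike-in scaling. Both positive values reverse its sign. Spike-in scaling also turned 5 of the 8 lower members: Rpn1 to 0.13, Uggt1 to 0.15, Sec61a1 to 0.16, Sec61b to 0.21 and Ssr1 to 0.22. It rests on 7 spike-in probes (knockout minus wild type -0.16, range -0.28 to -0.09 before scaling). Counts stayed within 1.5 times under median centring, no filter, the stricter filter and naming by accession. Over all genes, lower genes went from 2065 to 198 and higher genes from 1295 to 9376 under spike-in scaling, and higher genes to 657 under normexp; without the filter 11338 of 30209 were lower. The cause of these shifts was not tested. No paired analysis was possible because each group has 1 array, and no array could be left out. Alg6, Ssr1 and Srprb each rest on a dim probe whose difference is far from that of the brighter one.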

Other observations

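Members that lie near each other in the genome gave different pictures. Alg2 and Sec61b are direct neighbours on chromosome 4 with 0 annotated genes between them, and they were at 0.14 and -0.60. Rpn1 and Sec61a1 lie on chromosome 6 with 8 genes between them, 5 of them protein-coding, and they were at -0.67 and -0.65.

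Among the 18 members with several measured probes the probes spanned a median of 0.20 and shared a sign in 14; over all 3348 such genes the median span was 0.27 and 2235 shared a sign. The probe nearest the end of the transcript was the lower one in 10 of 17 member transcripts (58.8%) and in 1560 of 2623 transcripts over all genes (59.5%), with median differences between last and first probe of -0.10 and -0.06. Ssr1 and Spcs2 followed that order, and Alg6 the opposite one.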
